A study of Mus musculus with 8 samples.

Results

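Scavenger receptors other than the fatty acid translocase Cd36 were examined in islet macrophages: Msr1, Marco, Colec12, Scarb1, Scarb2, Cd68, Olr1, Clec7a and Lrp1. The 9 genes were taken from the deposited table by their symbols, 1 row each of 48440 genes. The libraries came from CD11b and F4/80 double-positive cells sorted from pancreatic islets of wild-type male C57BL/6J mice aged 16 weeks. From an age of 8 weeks the mice ate either chow (8% fat, 10.88 kJ/g) or a high-fat diet, HFD (45% fat, 19.67 kJ/g), for 8 weeks. There were 4 libraries per diet, chow replicates 1 to 4 and HFD replicates 5 to 8, each from a pool of 2 mice. The pool and not the mouse was thus the replicate. In bulk RNA of this kind, a change in the number of cells of a type and a change in RNA per cell cannot be told apart.

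Scavenger receptors are membrane proteins grouped by the wide range of ligands they bind, among them modified lipoproteins, microbial surfaces and dying cells, rather than by descent from 1 ancestor. Class A members carry a collagen-like stalk (Msr1, Marco and Colec12), class B members cross the membrane at both ends (Scarb1 and Scarb2), Cd68 is a lysosomal mucin-like glycoprotein, Olr1 and Clec7a are C-type lectin-like receptors, and Lrp1 is a large endocytic receptor with many ligands. In macrophages they feed cargo into endosomes and lysosomes, and several take up modified LDL in lipid-loaded cells.

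Levels are in CPM, the usual scaling of counts to each library's total, with the totals corrected for composition by TMM scaling. Library totals ran from 4288665 to 6391247 counts, and 3 counts, the limit a count of 0 allows, corresponded to 0.468 to 0.708 CPM, covering counting error only. All 10 macrophage markers were detected in every library, with sums of 3556 to 4273 CPM in chow against 3039 to 3782 CPM in HFD. The libraries differed in transcripts of other islet cells. The 12 stellate and fibroblast markers summed to 0.674 to 3.32 CPM in chow, to 355, 196 and 238 CPM in HFD replicates 5, 6 and 7, and to 2.61 CPM in HFD replicate 8. Each chow library had counts for 2 of the 12, HFD replicates 5 to 8 for 10, 11, 9 and 5, and Loxl1 was at 0 throughout. The 12 endothelial markers summed to 1.00 to 24.9 CPM, with Flt1, Emcn, Esam and Sox17 at 0 in all libraries. The 15 acinar enzyme markers summed to 0.225 to 3387 CPM in chow against 37.4 to 1700 CPM in HFD. The 13 endocrine markers summed to 504 to 1829 CPM in chow and to 1038 to 1864 CPM in HFD. The monocyte markers Ly6c2 and Plac8 were at 0, as were 8 of the 10 neutrophil markers, among them S100a8 and S100a9. The monocyte list, mostly Ccr2, summed to 659 to 1274 CPM and the neutrophil list, mostly Csf3r, to 30.6 to 123 CPM. The B cell list summed to 0 to 25.5 CPM, with Cd79a, Pax5, Blk and Fcmr at 0. The T and NK cell list, mostly Cd4, summed to 9.84 to 48.3 CPM, with Cd3e, Cd3g, Lck, Ncr1 and Nkg7 at 0.

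No receptor passed the threshold between diets. At an adjusted p of 0.05, edgeR's quasi-likelihood test called 0 of 10129 tested genes (0%), of which 542 (5.35%) had an unadjusted p under 0.05; the count was 93 for DESeq2 and 1 for limma-voom with quality weights, none of them among the 9 receptors (DESeq2 gave Marco and Colec12 no adjusted p). Of the 9 receptors 7 passed the filter on low counts, Marco and Colec12 being too sparse, and 1 of these 7, Clec7a, had an unadjusted p under 0.05 and was lower in HFD, as were 2.74% of tested genes. Lrp1, higher in HFD, was close to that limit (edgeR unadjusted p = 0.052). Scaled by library totals alone, both changed places, with an edgeR unadjusted p of 0.026 for Lrp1 and 0.071 for Clec7a. Every HFD library lay below every chow library for Clec7a, a pattern of 1.71% of tested genes, and above every chow library for Scarb2, a pattern of 1.68%. Thus 2 of 7 receptors had diet groups that did not overlap, against 3.39% of tested genes. The median log2 fold change (HFD over chow) was 0.20 over the 7 receptors, 4 higher and 3 lower, and -0.02 over all tested genes.

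**Figure D1:**
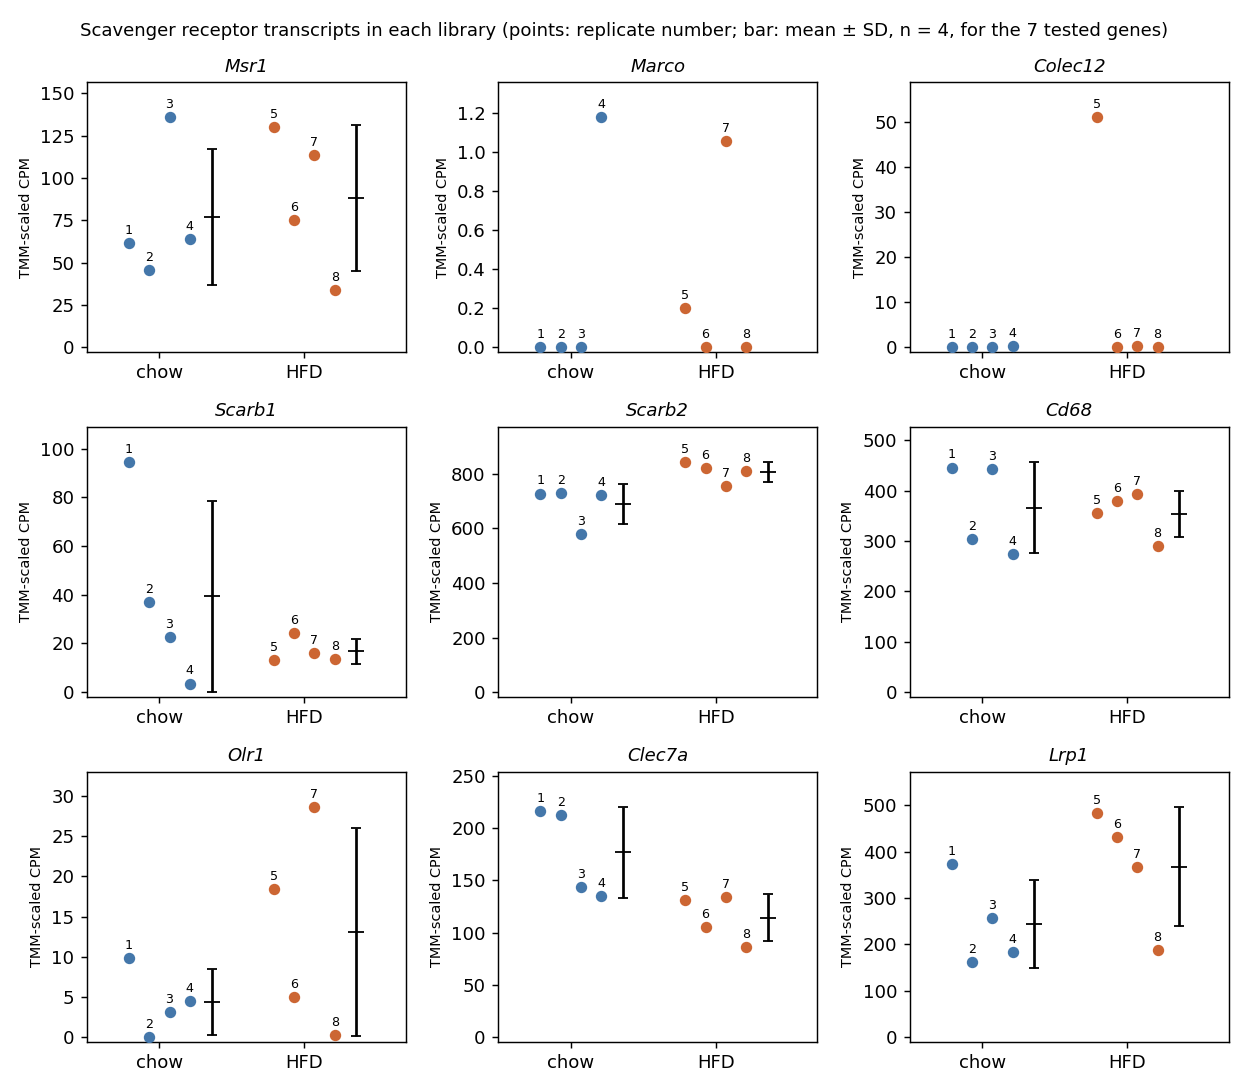
Level of each receptor gene in TMM-scaled CPM (vertical axis) in the 4 chow and 4 HFD libraries; each point is a library labelled with its replicate number, and black bars are mean ± SD for the 7 tested genes. Clec7a was lower and Scarb2 higher in every HFD library than in any chow library, while nearly all Colec12 counts came from HFD replicate 5.

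The lectin genes Clec7a and Olr1 are neighbours on the minus strand of chromosome 6, the first at 129461591 to 129472779 and the other at 129485244 to 129507165 (GRCm38), with 12464 bases between them. Their diet differences had opposite signs, neither past the threshold. The bases just before their start sites are shown with those of Cd68, the receptor with the highest level per length, to compare short motifs known from macrophage promoters. Sequences are from RefSeq (GRCm38.p6), 250 bases up to the start site, at chr6:129472780-129473029 for Clec7a (the first of 2 listed start sites), chr6:129507166-129507415 for Olr1 and chr11:69666171-69666420 for Cd68, all minus strand. Capitals mark GAGGAA, the purine core recognised by the macrophage factor PU.1, or its complement TTCCTC, and TGAGTCA, the AP-1 element, or its complement TGACTCA.
Clec7a: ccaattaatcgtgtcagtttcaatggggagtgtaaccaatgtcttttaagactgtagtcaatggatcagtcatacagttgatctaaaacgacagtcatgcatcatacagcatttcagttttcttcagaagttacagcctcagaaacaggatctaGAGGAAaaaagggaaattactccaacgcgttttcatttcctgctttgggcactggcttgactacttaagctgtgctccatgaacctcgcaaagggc
Olr1: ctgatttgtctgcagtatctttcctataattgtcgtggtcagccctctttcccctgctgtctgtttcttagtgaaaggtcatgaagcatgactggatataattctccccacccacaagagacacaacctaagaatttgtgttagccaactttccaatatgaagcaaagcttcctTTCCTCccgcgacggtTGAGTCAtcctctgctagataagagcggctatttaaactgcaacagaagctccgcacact
Cd68: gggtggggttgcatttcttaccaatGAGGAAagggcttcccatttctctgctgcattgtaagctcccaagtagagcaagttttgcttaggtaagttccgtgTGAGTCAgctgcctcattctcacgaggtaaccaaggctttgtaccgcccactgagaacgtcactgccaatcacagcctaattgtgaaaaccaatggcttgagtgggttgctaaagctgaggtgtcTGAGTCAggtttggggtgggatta
The purine core was present once in each of the 3 windows, and in 23.3% of all 32851 RefSeq windows of this length. The AP-1 element was absent from the Clec7a window, present once in that of Olr1 and 2 times in that of Cd68, against 4.46% of all windows with at least 1. The motifs did not overlap each other. Windows of 6 of the 9 genes were searched, and none was searched for Msr1, Scarb1 and Colec12. Of the windows searched but not printed, that of Marco held the purine core once and no AP-1 element. Those of Scarb2 and Lrp1 held neither. Of 4 motifs searched on both strands, the E-box CACGTG, in 6.02% of all windows, was in none of the 6, and the M-box GTCATGTG, in 0.916%, was in that of Scarb2 alone, once. All 250 bases of the Scarb2 window lie in GENCODE exons of the gene, and those of the other windows in none, so by that annotation it is not sequence before the gene. A match of letters is a description and not evidence of binding.

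Clec7a encodes Dectin-1, the receptor for fungal beta-glucans. It was at 216, 213, 144 and 135 CPM in chow replicates 1 to 4 and at 131, 105, 134 and 86.4 CPM in HFD replicates 5 to 8. The groups did not overlap, but chow replicate 4 and HFD replicate 7 nearly met. The means were 177 ± 43.6 CPM in chow against 114 ± 22.7 CPM in HFD (SD, n = 4). The log2 fold change was -0.63 (SE 0.28, 95% interval -1.22 to -0.05, unadjusted p = 0.035). After adjustment over all genes the difference did not pass (edgeR adjusted p = 0.89), and 391 genes had a smaller p. With 1 library left out it ran from -0.75 to -0.52, and with the stellate and fibroblast sum as a covariate it was -0.95 (SE 0.51). Dendritic cells also express Clec7a. Of 12 dendritic cell markers 7 to 11 had counts per library, and Ccr7 was at 0. Of the 8 tested, 4 were higher and 4 lower in HFD, with a median log2 fold change of 0.11. Sums of all 12 were 601, 541, 421 and 403 CPM in chow replicates 1 to 4, the order of Clec7a. They were 284, 415, 430 and 432 CPM in HFD replicates 5 to 8, not its order. In chow Siglech, the largest gene of the list, was at 212, 160, 179 and 204 CPM. Irf8 was at 240, 148, 68.4 and 88.0 CPM there and Clec9a at 49.6, 122, 76.3 and 38.9 CPM. None of these genes singly had the order of Clec7a. The part of dendritic cells in the Clec7a difference was not tested. GENCODE M21 classes the C57BL/6J gene as a polymorphic pseudogene.

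Olr1 encodes LOX-1, a receptor for oxidised LDL known from endothelium and activated macrophages. It was at 9.88, 0, 3.11 and 4.48 CPM in chow replicates 1 to 4 and at 18.5, 5.04, 28.7 and 0.201 CPM in HFD replicates 5 to 8. HFD replicates 5 and 7 stood above all chow libraries, whereas HFD replicate 8, with 1 count, lay among the lowest. The log2 fold change of 1.59 had an SE of 1.36 and a 95% interval of -1.25 to 4.43 (edgeR adjusted p = 0.99). It was 0.86 without HFD replicate 7 and 2.38 without chow replicate 1, the extremes with 1 library left out. HFD replicates 5, 6 and 7, which carried stellate and fibroblast markers, differed among themselves in Olr1, and with that sum as a covariate the log2 fold change was -4.43 (SE 3.30). Endothelial marker sums, at 8.54, 1.56, 21.9 and 1.00 CPM in HFD replicates 5 to 8, had the order of Olr1 there but not in chow, where the highest sum, 24.9 CPM, was in replicate 3. Each sum rested on 1 to 3 of the 12 markers, which differed between libraries: Pecam1 alone in HFD replicate 6, and mostly Vwf, at 23.6 CPM, in chow replicate 3. Their part in the Olr1 values was not tested.

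Lrp1 (chromosome 10, 127538161 to 127621148, minus strand) encodes the endocytic receptor for apolipoprotein E remnants, proteases bound to inhibitors, and calreticulin on dying cells. It was at 372, 162, 256 and 183 CPM in chow, against 484, 432, 366 and 188 CPM in HFD. HFD replicates 5 and 6 exceeded every chow library, HFD replicate 7 lay just under chow replicate 1, and HFD replicate 8 lay with the low chow libraries. The means were 243 ± 95.2 and 368 ± 129 CPM (SD, n = 4), a log2 fold change of 0.60 (SE 0.29, 95% interval -0.01 to 1.20, edgeR adjusted p = 0.93). With 1 library left out it ran from 0.44, without HFD replicate 5, to 0.88, without chow replicate 1. The 3 HFD libraries with high Lrp1 were those with 196 to 355 CPM of stellate and fibroblast markers, and with that sum as a covariate the log2 fold change was -0.35 (SE 0.45). Chow replicate 1 had 372 CPM of Lrp1 with 0.674 CPM of those markers. The stellate and fibroblast sum nearly follows diet, and its part in the Lrp1 values was not tested.

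Msr1 (chromosome 8, 39581685 to 39642673, minus strand) encodes the class A receptor for acetylated and oxidised LDL. It was at 61.3, 45.7, 136 and 64.0 CPM in chow, against 130, 75.0, 113 and 33.5 CPM in HFD. The highest library was a chow library, replicate 3, and the lowest an HFD library, replicate 8, and the groups overlapped over most of their range. The means were 76.8 ± 40.3 and 88.0 ± 43.0 CPM (SD, n = 4), a log2 fold change of 0.20 (SE 0.44, 95% interval -0.72 to 1.11, edgeR adjusted p = 0.99). That interval spans fold changes of 0.608 to 2.16, so a doubling could not be told from no change. Within a diet Msr1 varied more than Clec7a, by 2.97-fold in chow and 3.88-fold in HFD between the highest and the lowest library, against 1.60-fold and 1.55-fold. With the stellate and fibroblast sum as a covariate the sign turned (-1.41, SE 0.63, edgeR adjusted p = 0.999).

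The other class A genes were barely detected. Marco, the collagenous receptor of marginal zone and alveolar macrophages, had 11 counts in all 8 libraries together. It had 5 in chow replicate 4, 5 in HFD replicate 7, 1 in HFD replicate 5 and 0 in the other 5 libraries, so no fold change is given. Colec12, a collectin receptor also known from vascular and stromal cells, had 260 counts, of which 258 (99.2%) were in HFD replicate 5, at 51.2 CPM. Chow replicate 4 and HFD replicate 7 had 1 count each and the other 5 libraries 0. The pooled HFD to chow ratio, 259 counts against 1, was 251 with an exact binomial counting interval of 44.7 to 9970, but without HFD replicate 5 the counts were 1 against 1. In an edgeR fit without the filter Colec12 had an adjusted p of 0.056, which therefore rests on 1 library. HFD replicate 5 had the highest stellate and fibroblast sum, 355 CPM, and HFD replicates 6 and 7, at 196 and 238 CPM, had 0 and 1 Colec12 counts. The source of the Colec12 counts was not tested.

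Scarb2 (chromosome 5, 92441314 to 92506833, minus strand) encodes LIMP-2, the lysosomal membrane protein that carries beta-glucocerebrosidase to lysosomes. It was the steadiest receptor, at 727, 729, 580 and 721 CPM in chow, against 841, 822, 756 and 809 CPM in HFD. Every HFD library exceeded every chow library, and chow replicate 3 stood well below the other 3 chow libraries. The means were 689 ± 73.1 and 807 ± 36.4 CPM (SD, n = 4), a ratio of 1.17. The log2 fold change of 0.23 (SE 0.15, 95% interval -0.08 to 0.54) did not pass (edgeR adjusted p = 0.99), and the interval did not reach a doubling. Its coefficient of biological variation in the fit, 0.246, was lower than that of all but 0.375% of tested genes. Its mean level was above that of 99.1% of tested genes, and the low variation was not separated from this high level. Without chow replicate 3 the log2 fold change was 0.15 (SE 0.16), and with the stellate and fibroblast covariate it was 0.26 (SE 0.24).

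Cd68 (chromosome 11, 69664213 to 69666153, minus strand), widely used as a macrophage marker, was at 446, 303, 443 and 274 CPM in chow, against 355, 379, 393 and 289 CPM in HFD. The HFD libraries all lay within the range of the chow libraries. The log2 fold change of -0.05 (SE 0.21) had a 95% interval of -0.48 to 0.39, that is fold changes of 0.715 to 1.31. Its sign changed under 5 of 18 alternatives. Among the 18, the adjusted p of 0.1 and the fit that was not robust left the estimate as it was.

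Scarb1 (chromosome 5, 125277087 to 125341094, minus strand) encodes SR-BI, the HDL receptor that mediates selective uptake of cholesteryl esters. It was at 94.6, 36.8, 22.6 and 3.54 CPM in chow, against 13.3, 24.1, 16.0 and 13.7 CPM in HFD. Chow libraries spread 26.7-fold and HFD libraries 1.81-fold, and all HFD libraries fell between the lowest and the second highest chow library. The means were 39.4 ± 39.2 and 16.8 ± 5.05 CPM (SD, n = 4), a log2 fold change of -1.23 (SE 0.74, 95% interval -2.79 to 0.33, edgeR adjusted p = 0.99). Without chow replicate 1 it was -0.33 (SE 0.82), and with limma-voom and quality weights it was -0.12 (SE 0.82).

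A second gene model lies inside Scarb1. Gm42633, a 2764-base model of unverified type on the same strand (125318681 to 125321444), shares no base with annotated Scarb1 exons and so falls in an intron. It was at 1.12, 1.09, 0 and 19.1 CPM in chow, against 33.4, 5.90, 21.1 and 9.84 CPM in HFD. Its levels ran against those of Scarb1 in some libraries only. Chow replicate 4, lowest in Scarb1, was the highest chow library in Gm42633. HFD replicate 5, lowest of the HFD libraries in Scarb1 at 13.3 CPM, was the highest of all in Gm42633. HFD replicate 8, at 13.7 CPM of Scarb1, had 9.84 CPM of Gm42633, and chow replicate 3, at 22.6 CPM of Scarb1, had 0. Whether the Gm42633 counts came from unspliced Scarb1 RNA was not tested. The 2 summed to 44.7 ± 34.7 CPM in chow against 34.3 ± 9.93 CPM in HFD (SD, n = 4). With the counts of both added before the fit, an alternative chosen after seeing the data, the log2 fold change was -0.38 (SE 0.55, edgeR adjusted p = 0.99) in place of -1.23.

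**Figure D2:**
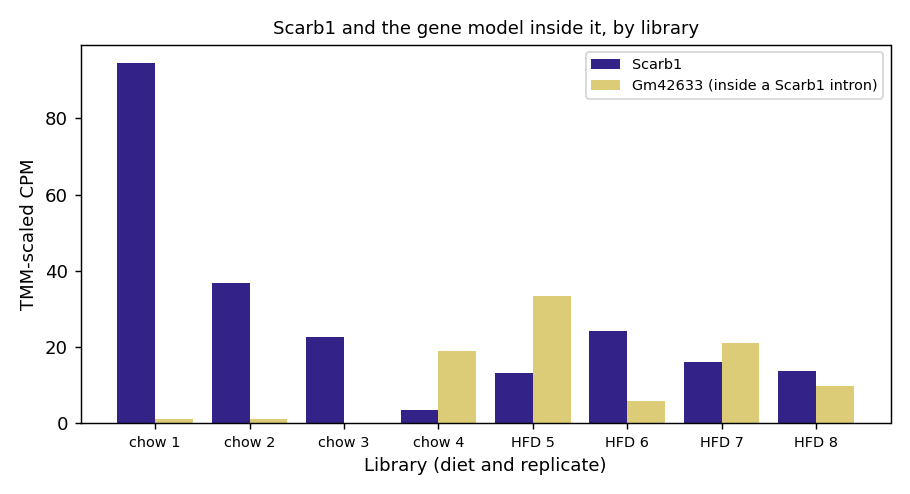
Levels in TMM-scaled CPM (vertical axis) of Scarb1 and of Gm42633, a gene model inside a Scarb1 intron, in each library (horizontal axis). Scarb1 was highest in chow replicate 1 at 94.6 CPM, and Gm42633 in HFD replicate 5 at 33.4 CPM.

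Levels of different genes were compared per kilobase of exonic length. Cd68 was the most abundant, at 286.5 ± 53.2 CPM per kb over the 8 libraries, followed by Scarb2 at 119 ± 13.2, Clec7a at 55.2 ± 17.6, Lrp1 at 17.2 ± 7.01, Msr1 at 12.99 ± 6.16, Scarb1 at 3.30 ± 3.36, Olr1 at 2.44 ± 2.81, Colec12 at 0.741 ± 2.07 and Marco at 0.158 ± 0.264 CPM per kb (SD, n = 8). Neighbours from Cd68 to Lrp1 kept this order in 8 of 8 libraries with ranges that did not overlap. Lrp1 exceeded Msr1 in 7 of 8 libraries and Msr1 exceeded Scarb1 in 7 of 8, with overlapping ranges. Scarb1 and Olr1 were in this order in 5 of 8 libraries and changed places between diets, Scarb1 having the higher mean in chow and Olr1 in HFD. Colec12 exceeded Marco in only 1 library, so this pair was not ordered beyond its spread. With the longest transcript as the length, Msr1 came before Lrp1, at 22.7 against 20.5 CPM per kb, and the other ranks were the same.

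**Figure D3:**
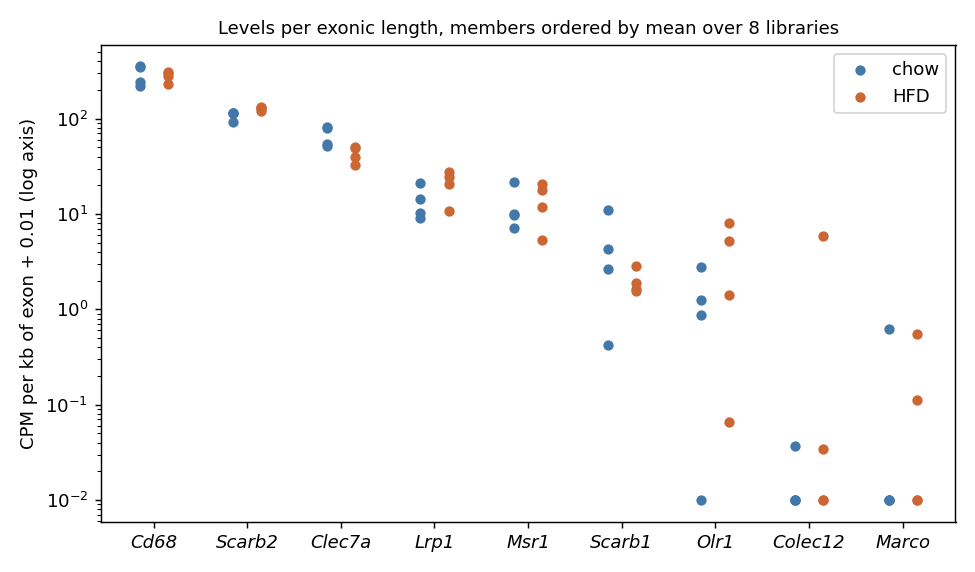
CPM per kilobase of exon plus 0.01 (log axis) for the 9 receptor genes in order of their mean over 8 libraries; each point is a chow or HFD library. Cd68, Scarb2, Clec7a and Lrp1 form separate steps, Msr1 overlaps Lrp1, and points at 0.01 are libraries with a count of 0.

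**Figure D4:**
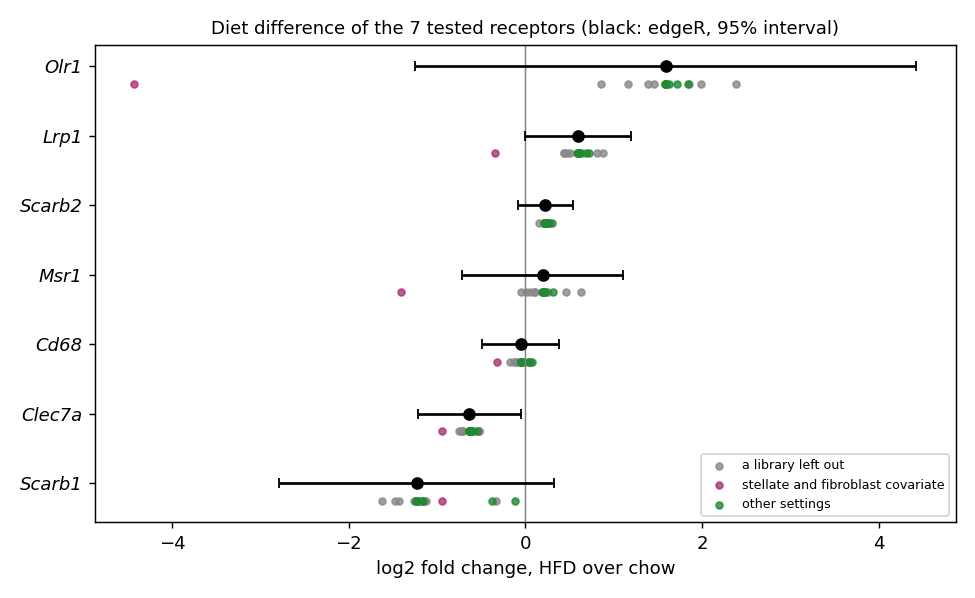
Log2 fold change of HFD over chow (horizontal axis) for the 7 tested receptors; black points and bars are the edgeR estimate and its 95% interval, and coloured points below each are values under alternative settings. Only the interval of Clec7a excludes 0 before adjustment, and the stellate and fibroblast covariate turns Lrp1, Msr1 and Olr1 below 0.

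Partners and relatives were read from 8 lists, in none of which a gene was called in either direction. Of 19 other scavenger receptors found, 7 were tested, 6 higher and 1 lower in HFD, where 48.6% of all tested genes were higher. The median log2 fold change of 0.95 over these 7 was the value of Cd36 itself. The chemokine and scavenger receptor gene Cxcl16 was at 611 ± 105 CPM in chow against 416 ± 71.1 CPM in HFD (log2 fold change -0.55, SE 0.18, edgeR adjusted p = 0.75). Cd36 and Mrc1, the mannose receptor gene, had the smallest p of this list. The log2 fold change was 0.95 (SE 0.24) for Cd36 and 1.24 (SE 0.32) for Mrc1, each with an edgeR adjusted p of 0.58. Mrc1 was at 1060, 522, 657 and 231 CPM in HFD replicates 5 to 8, the last within its chow range of 202 to 321 CPM.

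Among 15 lectin genes related to Clec7a, 11 were tested, 5 higher and 6 lower, with a median of -0.10. Clec9a, the dendritic cell receptor for dead-cell actin, was at 49.6, 122, 76.3 and 38.9 CPM in chow against 27.2, 26.6, 32.7 and 11.8 CPM in HFD, so its groups did not overlap, as for Clec7a. Clec4a1 differed in the other direction, with HFD replicate 6 just above chow replicate 2, at 6.74, 25.1, 14.1 and 8.73 CPM in chow against 56.6, 25.5, 56.3 and 43.4 CPM in HFD. Neither passed (edgeR adjusted p = 0.75 each, log2 fold changes -1.54, SE 0.50, and 1.73, SE 0.61). Groups thus did not overlap for 1 lower and 1 higher of the 11, against 1.71% and 1.68% of all tested genes. Clec4a2 had a log2 fold change of -0.93 (SE 0.67). Clec9a is also 1 of the dendritic cell markers, of which 4 tested ones were higher and 4 lower in HFD.

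The 18 genes of Dectin-1 signalling were all tested, 7 higher and 11 lower, with a median of -0.17. Prkcd, which encodes a protein kinase C isoform acting downstream of Syk, was at 265, 260, 336 and 303 CPM in chow against 206, 181, 147 and 248 CPM in HFD (log2 fold change -0.57, SE 0.22, edgeR adjusted p = 0.78). Its groups did not overlap, which held for 1 of the 18 genes, against 3.39% of all tested genes. Log2 fold changes of the NF-kB subunit genes were -0.58 (SE 0.28) for Nfkb1 and -1.23 (SE 0.78) for Rela.

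For Lrp1, 15 of 17 relatives and intracellular partners were tested, 9 higher and 6 lower, with a median of 0.38. The endocytic adaptor gene Dab2 was at 464, 364, 538 and 502 CPM in chow against 1140, 723, 602 and 426 CPM in HFD. As for Lrp1, HFD replicate 5 was highest and HFD replicate 8 lowest of the HFD libraries. Lrp6, a Wnt co-receptor gene, averaged 169 ± 26.8 CPM under chow against 255 ± 67.3 CPM under HFD (SD, n = 4). Of the 12 Lrp1 ligands 9 were tested, 2 higher and 7 lower, with a median of -0.35. The complement genes C1qb (log2 fold change -0.48, SE 0.18) and C1qa (-1.10, SE 0.54) and the apolipoprotein gene Apoe (-0.35, SE 0.16) had its smallest p. C1qa was at 169 CPM in chow replicate 1 and at 32.9, 58.9 and 40.1 CPM in chow replicates 2 to 4. In HFD it was at 16.0 to 53.8 CPM.

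Of 8 genes around SR-BI and HDL, 5 were tested, 3 higher and 2 lower, with a median of 0.22. The cholesterol exporter gene Abca1 had a log2 fold change of 0.40 (SE 0.22), the cholesteryl ester hydrolase gene Nceh1 one of 0.40 (SE 0.31) and the cholesterol acyltransferase gene Soat1 one of 0.22 (SE 0.20). Of 16 lysosomal membrane genes and LIMP-2 partners 15 were tested, 7 higher and 8 lower, with a median of -0.04. Lamp2, a major lysosomal membrane protein, was at 778 to 851 CPM in chow against 814 to 986 CPM in HFD, with a difference of 0.19 (SE 0.14) on the log2 scale. Npc1, a lysosomal cholesterol transporter gene, had one of 0.29 (SE 0.22) and the proton pump gene Atp6v0d1 one of 0.65 (SE 0.62). Atp6v0d1 was at 53.5, 22.5, 46.6 and 24.3 CPM in chow, against 154, 34.6, 26.8 and 14.5 CPM in HFD. HFD replicate 5 alone exceeded every chow library. Of 16 regulators of scavenger receptor genes 13 were tested, 8 higher and 5 lower, with a median of 0.13. The transcription factor gene Maf was at 135 ± 36.9 and 204 ± 38.9 CPM (log2 fold change 0.60, SE 0.27), Stat6 at 133 ± 73.7 and 72.9 ± 27.7 CPM, and Irf4 at 21.3 ± 15.2 and 51.8 ± 13.9 CPM. Their edgeR adjusted p-values were 0.89, 0.89 and 0.94.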

How the data were processed

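Sorted islet macrophages from 2 diets, 4 libraries each, were compared. Libraries were prepared from 500 pg of RNA with the Ovation RNA-Seq System V2, per the labels' protocols. Reads were handled with FastQC, Trim Galore and STAR on GRCm38, per the submitters' processing notes; for versions, counting program, annotation and strand setting the sources used here give nothing. The authors deposited expected counts per gene, not scaled between libraries, some of them not whole, and these were rounded. Molecular identifiers are not mentioned, so counts are not independent molecules; the binomial interval and the floor of 3 counts cover counting error only.

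Genes were tested with edgeR (version 4.0.16) in R (version 4.3.3): TMM scaling, filterByExpr, a robust quasi-likelihood fit on diet alone, and p-values adjusted by Benjamini-Hochberg over 10129 tested genes, at 0.05, two-sided. SEs and unadjusted 95% intervals come from the same fit, which was tested on simulated data, and include the spread between pools. P-values measure the spread between these pools. Annotation, coordinates (1-based) and exonic lengths are from GENCODE M21 (GRCm38), in which 48058 identifiers were found. Alternatives used DESeq2 (version 1.42.0), limma-voom (version 3.58.1), other scalings and filters, each library left out, and a covariate of the log2 stellate and fibroblast sum plus 1 CPM.

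The receptors, lists and tests were chosen with earlier results of these data known, and the 4 promoter motifs, all reported, with the sequences at hand; the windows printed were chosen after their matches were seen. Named genes are all 9 receptors, up to 3 tested genes with the smallest p per pathway list, and the 3 genes most like each receptor with a mean of at least 20 CPM; Gm42633 was added after its values were seen. A few genes that this rule or the marker lists name are not reported here. Of the list symbols Scart1 and Clec6a were not matched.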

Additional observations from a re-analysis of the deposited data

Results flagged for a closer look

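In each group of 4 libraries the highest and lowest values were compared with the rest by Dixon's criterion at 95% over 18 groups (9 receptors, 2 diets), of which chance alone would give about 1 in 20. In 4 groups a library met it. Scarb2 in chow replicate 3 was at 580 CPM, below 721 to 729 CPM in the other chow libraries. Colec12 in HFD replicate 5 was at 51.2 CPM, with at most 0.211 CPM in the other HFD libraries. In chow replicate 4 Colec12 was at 0.236 CPM and Marco at 1.18 CPM, on 1 and 5 counts, with 0 in the other chow libraries; the criterion is met by any count when the others are 0, and 1 count is under the floor of 3.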

How the results depend on the processing

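No paired analysis was possible because the diets share no replicate number. The count of called genes, 0, was 45 without the filter, 93 with DESeq2, 1 with limma-voom and 1 at an adjusted p of 0.1; with a library left out it was 0 to 11, the 11 arising without HFD replicate 8. It was 0 with the other scalings, the filter at 5 CPM, the fit that was not robust and the covariate. None of the 9 receptors was called in any of these; DESeq2 gave Colec12 and Marco no adjusted p. With the stellate and fibroblast covariate the log2 fold changes of Msr1, Lrp1 and Olr1 turned to -1.41, -0.35 and -4.43; that sum is under 4 CPM in all chow libraries and HFD replicate 8, so it nearly follows diet. Cd68 turned to 0.038 with library totals and 0.072 with limma-voom. With a library left out Cd68 ranged from -0.17 to 0.055 and Msr1 from -0.052 to 0.63, negative without HFD replicate 5. The cause of these changes was not tested. Scarb1, Scarb2 and Clec7a kept their sign under the alternatives run, which for Scarb2 and Clec7a says little where a library is left out, since their groups do not overlap. With the longest transcript as length, Scarb2, Msr1 and Scarb1 moved to 159, 22.7 and 9.08 CPM per kb. Marco had 11 counts in all and Colec12 1 count or 0 in all but 1 library, so their diet differences could not be estimated from these counts.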

Other observations

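The genes whose pattern over the 8 libraries was most like that of a receptor were read by Pearson correlation of log2(CPM + 1) among tested genes with a mean of at least 20 CPM. The values describe these libraries only, since the points share library and diet and each gene was picked as the highest. For Clec7a they were BC031181 (r = 0.958, Spearman rho 0.905), Arih2 (r = 0.950, rho 1) and Usp15 (r = 0.935, rho 0.762). Arih2, a ubiquitin ligase gene, ordered the 8 libraries exactly as Clec7a did, from 71.4 CPM in chow replicate 1 to 17.3 CPM in HFD replicate 8. For Scarb2 they were Atf2 (r = 0.964), Rhoq (r = 0.951) and Asnsd1 (r = 0.942), and for Msr1 Zcchc4 (r = 0.949), Wipf2 (r = 0.935) and Gdi2 (r = 0.933). For Lrp1 they were Gm42763 (r = 0.934), Smarcc1 (r = 0.920) and the matrix protein gene Sparc (r = 0.918). Sparc was at 83.2 and 60.1 CPM in HFD replicates 5 and 6, at 20.0 and 4.42 CPM in HFD replicates 7 and 8, at 23.8 CPM in chow replicate 1 and at 0.472 to 1.72 CPM in the other chow libraries. For Cd68 they were Naa60 (r = 0.930), Larp7 (r = 0.917) and Gm40309 (r = 0.916), and for Scarb1 Tmem189 (r = 0.924), Ddx5 (r = 0.923) and Pfas (r = 0.917). By Spearman correlation 1 of these 3 was shared for Msr1, Scarb1 and Clec7a each and 0 for Scarb2, Lrp1 and Cd68, so the choice of genes depends on the measure.

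Among the 6 receptors with such a mean, levels did not move as 1 group over the libraries. The highest Pearson correlations of log2 levels were 0.669 for Lrp1 with Cd68, 0.640 for Scarb1 with Cd68 and 0.633 for Msr1 with Lrp1 (Spearman rho 0.524, 0.643 and 0.524), and the lowest was -0.391 for Scarb2 with Clec7a (rho -0.714). These 15 pairs are a description over 8 libraries.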
